A study of Mus musculus with 15 samples.

Results

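Helper T cells divide their work by cytokine, and each line of work has a transcription factor that sets it. The 9 genes described here are the cytokine genes Ifng, Il4, Il17a, Il2 and Il21 and the regulator genes Tbx21, Gata3, Eomes and Bcl6. They were taken by symbol from the array's annotation. Each has 1 probe set (a group of probes for a transcript), and all 9 of 19938 genes were kept whether bright or dim.

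RNA was measured in CD4+CD25+ cells sorted from mouse spleen, which the labels call Treg cells, on 15 single-colour arrays, with 3 arrays each of dKO, Ikzf4-/- and Ikzf2-/- cells and 6 of WT cells. Helios, the product of Ikzf2, is missing by label in Ikzf2-/- mice, Eos, the product of Ikzf4, in Ikzf4-/- mice, and both in dKO (Ikzf2-/-Ikzf4-/-) mice. The arrays form 2 runs: dKO 1 to 3, Ikzf4-/- 1 to 3 and WT 1 to 3 in one, and Ikzf2-/- 1 to 3 and WT 4 to 6 in the other. Values below are log2 signals, and each knockout is set against the WT arrays from the same run. The sources used here state no strain, age, sex, type of deletion or treatment, and no label says whether an array is 1 animal or a pool.

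In background terms, T-bet (Tbx21) directs T helper 1 cells, which secrete interferon gamma (Ifng), and the related T-box factor Eomes directs cytotoxic lymphocytes. GATA3 directs T helper 2 cells, whose signature cytokine is interleukin-4, and interleukin-17A marks T helper 17 cells. Bcl6 directs follicular helper cells, a main source of interleukin-21. Treg cells are known for repressing Il2, the gene of the growth factor they consume, under Foxp3, and some of them express T-bet or GATA3 themselves.

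The arrays differ in ways that touch the results. The Treg identity list (7 of 8 listed genes measured, among them Foxp3, Cd4, Cd3e and Il2ra) averaged 10.77 to 10.87 in dKO, 10.78 to 10.80 in Ikzf4-/- and 10.72 to 10.84 in WT 1 to 3. Ikzf2-/- arrays had means of 10.05 to 10.57, with array 2 the lowest, and WT 4 to 6 had 10.37 to 10.45. Ikzf2-/- 2 also had a Cd8b1 signal of 7.31, against 6.06 to 6.12 in the other 5 arrays of its run, and the smallest array weight of limma, 0.153 (the other 14 lay at 0.490 to 2.20). Cd8a, the other gene of the CD8 list, was dim and did not stand out there (4.68, against 4.09 to 4.74 in the other 5 arrays). In the run with dKO, Cd8b1 read 6.46 to 7.38. Ikzf2-/- 3 and WT 1 held the highest B cell list means (7.87 and 6.96, against 4.72 to 5.89 elsewhere). The Ikzf2 signal was 10.06, 9.14 and 9.22 in Ikzf2-/- 1, 2 and 3, with WT 4 to 6 at 10.25 to 10.38, and it was 10.11, 10.16 and 10.59 in dKO 1, 2 and 3, against 10.46 to 10.76 in WT 1 to 3. Signals of Ikzf4 were 8.07 to 8.20 in dKO and 8.13 to 8.22 in Ikzf4-/-, against 7.83 to 8.07 in WT 1 to 3. Where these probes lie relative to the deletions is not known here, so the signals do not check the genotypes.

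A gene was taken to lie near background where no group mean exceeded 4.96, the median of all 35556 probe set means. Il4, Il17a and Il21 did so. Il2 passed only through WT 1 to 3, whose mean equals that median at this rounding, and lay below it in every other group. Tbx21 was little above it, as was Ifng except in Ikzf4-/- (4.91), while Gata3, Eomes and Bcl6 were the members whose means over all 15 arrays exceeded those of 22 genes of other organs (means 3.10 to 6.13) used as a scale for background. On the dKO and WT 1 to 3 arrays Eomes read 6.42 to 6.72, while the brightest of these genes, Tnnt2, read 6.60 to 6.91. In bulk RNA, fewer cells with a transcript and less transcript per cell cannot be told apart.

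**Figure D1:**
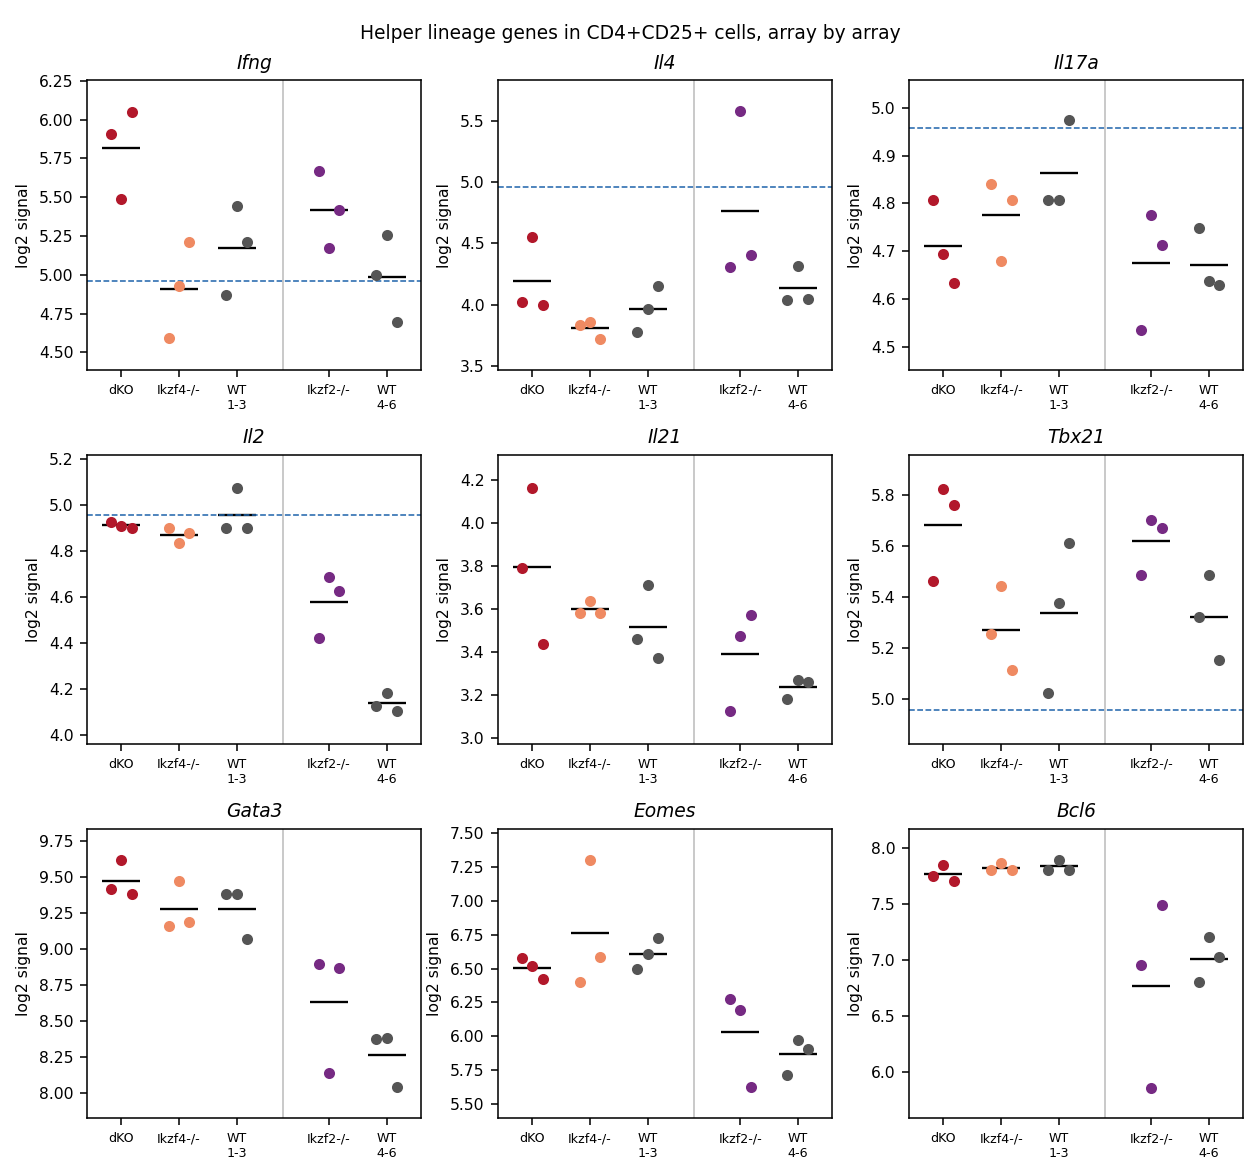
Log2 signal (y axis, its range set per gene) of the 9 genes on each of the 15 arrays, with dKO, Ikzf4-/- and WT 1 to 3 left of the grey line and Ikzf2-/- and WT 4 to 6 right of it. Points are arrays, bars are group means, and the dashed line is the median of all probe sets (4.96) where it falls in range. Ifng is highest in dKO, and Il2 separates Ikzf2-/- (4.42 to 4.69) from WT 4 to 6 (4.11 to 4.18).

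No member passed limma's test adjusted over all 19938 genes in any of the 4 comparisons, with Ikzf2-/- against WT, Ikzf4-/- against WT, dKO against WT or dKO against Ikzf4-/-. That test called 0.01% of all genes in Ikzf2-/- against WT (2 genes) and 0% in the other 3 comparisons. At an unadjusted p under 0.05, Il2 and Il4 passed in Ikzf2-/- against WT, which is 2 of 9 members beside 12.7% of all genes. With only the arrays of that run Ifng, Il2 and Tbx21 passed there (3 of 9, beside 7.34%), and Il4 did not. At equal array medians Ifng, Il4, Il2 and Tbx21 passed (4 of 9, beside 15.9%), and with array weights Il2 and Gata3 (2 of 9, beside 10.8%). For dKO, Ifng and Tbx21 passed both against WT (2 of 9, beside 3.76% of all genes) and against Ikzf4-/- (2 of 9, beside 2.87%), and 0 of 9 passed in Ikzf4-/- against WT (beside 2.08%). With the replicate number as a block these counts were 4 of 9 for dKO against WT (Ifng, Il21, Tbx21 and Gata3, beside 6.79% of all genes), 4 of 9 for dKO against Ikzf4-/- (Ifng, Il4, Tbx21 and Gata3, beside 5.75%) and 0 of 9 for Ikzf4-/- against WT (beside 4.44%), with none passing after adjustment. For dKO against WT the count was 1, Ifng, without WT 1 (beside 4.41% of all genes). It was 0 without WT 1 and Ikzf2-/- 3 together (beside 5.06%). The arrays of Ikzf2-/- and WT did not overlap for 1 of 9 members, Il2, which was higher. Of all genes 13% did not overlap there (8.23% higher and 4.76% lower), so the members' share is near that of all genes. The arrays of dKO and WT did not overlap for Ifng, higher (1 of 9, beside 7.57% of all genes, 3.93% higher and 3.64% lower). Ifng, Il4 and Tbx21 were higher without overlap in dKO against Ikzf4-/- (3 of 9, beside 6.79%, 3.44% higher and 3.35% lower). In Ikzf4-/- against WT all 9 overlapped, where 5.4% of all genes did not (2.62% higher and 2.78% lower). The comparisons of dKO with WT and with Ikzf4-/- share the dKO arrays.

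**Figure D2:**
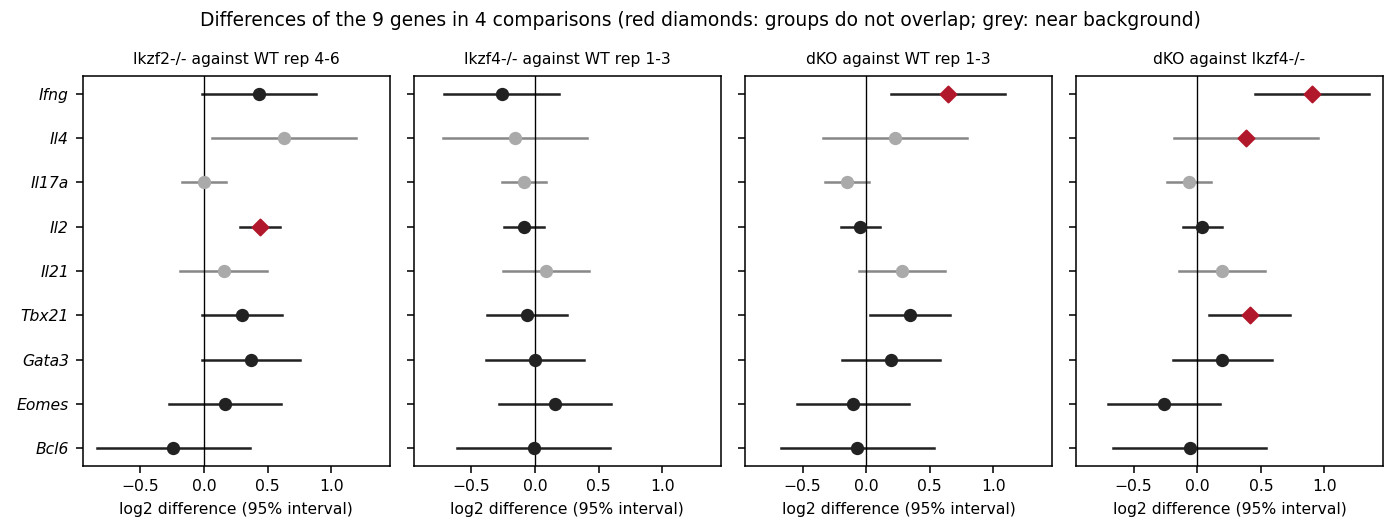
Log2 difference (x axis) of each gene (rows) in the 4 comparisons (panels), with 95% intervals from limma. Red diamonds mark comparisons in which the 3 arrays of one group all lie beyond the 3 of the other, and grey marks genes near background. The widest separation is that of Ifng in dKO against Ikzf4-/- (0.90, interval 0.46 to 1.35).

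The 250 bases before the RefSeq start (build GRCm38.p6) are shown for Ifng, Il2 and Tbx21, the members whose groups separated or whose unadjusted p was under 0.05 in a knockout and which were not near background. Capitals mark GGAAA, the core bound by NFAT, the factor that activates cytokine genes after T cell receptor signals, and TGGGAA, a core bound by Ikaros family proteins, each on either strand.
Ifng promoter, chr10:118440796-118441045, plus strand: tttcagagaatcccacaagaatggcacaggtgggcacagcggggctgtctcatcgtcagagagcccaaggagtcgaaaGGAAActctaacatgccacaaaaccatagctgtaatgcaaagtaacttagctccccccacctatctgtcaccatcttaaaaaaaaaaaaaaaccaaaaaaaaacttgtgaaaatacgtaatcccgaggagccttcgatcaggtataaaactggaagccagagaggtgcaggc
Il2 promoter, chr3:37125955-37126204, minus strand: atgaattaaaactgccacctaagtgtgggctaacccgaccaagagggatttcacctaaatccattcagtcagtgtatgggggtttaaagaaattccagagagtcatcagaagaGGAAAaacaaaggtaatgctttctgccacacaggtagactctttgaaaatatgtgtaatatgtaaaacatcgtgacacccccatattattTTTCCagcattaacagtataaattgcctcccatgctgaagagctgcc
Tbx21 promoter, chr11:97115332-97115581, minus strand: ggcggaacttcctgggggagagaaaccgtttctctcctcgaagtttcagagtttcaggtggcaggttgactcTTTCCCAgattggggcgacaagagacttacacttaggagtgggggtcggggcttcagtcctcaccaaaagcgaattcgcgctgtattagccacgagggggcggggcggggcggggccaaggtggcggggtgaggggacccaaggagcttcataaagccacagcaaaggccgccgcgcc

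GGAAA occurred in 55.6% of all 32851 such windows and TGGGAA in 21.6%. Among the 11 windows of the 9 members (Il4 and Bcl6 have 2 each), 8 held GGAAA and 2 held TGGGAA, those of Tbx21 and Il17a. In the Tbx21 window both motifs overlap in the run TTTCCCA. Of the other motifs searched on both strands, GGTGTG of T-box factors was in 2 of the 11 windows (16.3% of all), the AP-1 site TGANTCA in 1 (6.75%), the STAT site TTCNNNGAA in 3 (7.02%) and the GATA site AGATAA in 0 (9.99%). These matches describe letters only.

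Ifng was the member with the largest separation in dKO cells. It read 5.91, 5.49 and 6.05 in dKO 1, 2 and 3 and 4.59, 4.93 and 5.21 in Ikzf4-/- 1, 2 and 3, against 4.87, 5.44 and 5.21 in WT 1, 2 and 3. All 3 dKO arrays lay above every Ikzf4-/- and WT array, though dKO 2 exceeded WT 2 by little, and Ikzf4-/- and WT overlapped. The means were 5.82 ± 0.29 in dKO and 4.91 ± 0.31 in Ikzf4-/-, against 5.18 ± 0.29 in WT 1 to 3 (SD, n = 3 each). Against Ikzf4-/- the log2 difference was 0.90 (SE 0.21, 1.87-fold), with an unadjusted p of 0.000771, the 21st smallest of all genes, and an adjusted p of 0.70. Against WT it was 0.64 (SE 0.21, 95% interval 0.19 to 1.09, 1.56-fold, unadjusted p = 0.00869, adjusted p = 0.99). Ikzf4-/- minus WT was -0.26 (SE 0.21, interval -0.71 to 0.18).

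In the other run Ifng read 5.67, 5.17 and 5.42 in Ikzf2-/- 1, 2 and 3, against 5.00, 5.26 and 4.70 in WT 4, 5 and 6. The groups overlapped through Ikzf2-/- 2 and WT 5, and the difference was 0.44 (SE 0.21, interval -0.01 to 0.88, adjusted p = 0.41). The effect of Helios loss on Ifng was 0.47 larger with Eos also missing than with Eos present (SE 0.29, interval -0.17 to 1.10, adjusted p = 0.97), a difference of differences that was not resolved. Under every setting tried and with each array left out in turn, Ifng lay between 0.74 and 1.07 for dKO against Ikzf4-/-, 0.49 and 0.80 for dKO against WT, and 0.29 and 0.57 for Ikzf2-/- against WT.

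Natural killer (NK) and CD8 T cells also make interferon gamma, so their markers were read beside it. The NK list (8 of 8 measured, with Eomes itself among them) averaged 4.23 to 4.52 in dKO, 4.41 to 4.53 in Ikzf4-/- and 4.18 to 4.45 in WT 1 to 3, and 6 of its 8 genes lay near background. Its defining gene Ncr1 read 3.64 to 4.01 in dKO, 3.97 to 4.15 in Ikzf4-/- and 3.71 to 4.07 in WT 1 to 3. Cd8b1 was 6.46 to 7.04 in dKO, against 6.85 to 7.10 in Ikzf4-/- and 7.03 to 7.38 in WT 1 to 3. The dim Cd8a was 4.04 to 4.62 in dKO, against 4.33 to 4.72 in Ikzf4-/- and 4.39 to 4.78 in WT 1 to 3. The neutrophil list averaged 5.13 to 5.77 in dKO, against 4.40 to 5.10 in Ikzf4-/- and 4.48 to 6.88 in WT 1 to 3, with all 8 genes positive in dKO against Ikzf4-/-. The germinal centre and plasma cell list (6 of 7 measured) averaged 6.08 to 6.23 in dKO, against 5.69 to 5.96 in Ikzf4-/- and 5.87 to 6.18 in WT 1 to 3. All 6 of its genes were positive in dKO against Ikzf4-/-. Among them Mki67 read 7.25, 8.60 and 8.43 in dKO 1, 2 and 3 and 6.79, 7.64 and 7.28 in Ikzf4-/- 1, 2 and 3. Gcsam read 4.46 to 4.58 in dKO and 4.47 to 4.54 in Ikzf4-/-. Jchain read 7.40, 4.76 and 5.48 in dKO 1, 2 and 3 and 5.76, 5.39 and 4.80 in Ikzf4-/- 1, 2 and 3. Only Xbp1 did not overlap (7.50 to 7.74 in dKO, 7.25 to 7.46 in Ikzf4-/-), 1 of 6 beside 6.79% of all genes. The B cell list averaged 4.72 to 4.77 in dKO, against 4.74 to 4.90 in Ikzf4-/- and 4.82 to 6.96 in WT 1 to 3. The part of these cells in the Ifng values was not tested. Eif2s3y, a Y-linked gene, read 7.94 to 8.81 in dKO 2, dKO 3, Ikzf4-/- 3 and WT 3 and 2.87 to 3.09 on the other arrays. With it as a covariate the Ifng difference was 0.59 for dKO against WT and 0.85 for dKO against Ikzf4-/-.

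Tbx21, the gene of the T helper 1 regulator, had the same signs with smaller values. It read 5.46, 5.82 and 5.76 in dKO 1, 2 and 3 and 5.25, 5.44 and 5.12 in Ikzf4-/- 1, 2 and 3, against 5.02, 5.38 and 5.61 in WT 1, 2 and 3. The dKO arrays all lay above the Ikzf4-/- arrays, though dKO 1 and Ikzf4-/- 2 nearly met, and overlapped WT through WT 3. The difference was 0.41 against Ikzf4-/- (SE 0.15, interval 0.09 to 0.73, unadjusted p = 0.0148) and 0.35 against WT (SE 0.15, unadjusted p = 0.0343), with an adjusted p of 1 in both. Without WT 1 the difference from WT was 0.19.

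Tbx21 read 5.48, 5.70 and 5.67 in Ikzf2-/- 1, 2 and 3, against 5.32, 5.48 and 5.15 in WT 4, 5 and 6, and the groups met at Ikzf2-/- 1 and WT 5. The difference was 0.30 (SE 0.15, interval -0.02 to 0.62, adjusted p = 0.43). Ikzf4-/- minus WT was -0.06 (SE 0.15).

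Eomes, the other T-box gene, shared the sign of Tbx21 in Ikzf2-/- against WT and had the other sign in the remaining comparisons. It read 6.58, 6.52 and 6.42 in dKO 1, 2 and 3 and 6.40, 7.30 and 6.59 in Ikzf4-/- 1, 2 and 3, against 6.49, 6.61 and 6.72 in WT 1, 2 and 3. Apart from Ikzf4-/- 2, which was the highest of all 15 arrays, the groups all lay between 6.40 and 6.72. The difference was -0.10 in dKO against WT and 0.15 in Ikzf4-/- against WT (SE 0.20 each). Against Ikzf4-/- dKO was at -0.26 (SE 0.20, interval -0.70 to 0.18), and without Ikzf4-/- 2 this was 0.01. In Ikzf2-/- 1, 2 and 3 Eomes read 6.28, 6.20 and 5.63, against 5.72, 5.97 and 5.91 in WT 4, 5 and 6, a difference of 0.17 (SE 0.20) that was 0.37 without Ikzf2-/- 3, the array richest in B cell markers, and 0.04 without Ikzf2-/- 1.

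Il2 was the member with the smallest p in Ikzf2-/- cells. It read 4.42, 4.69 and 4.63 in Ikzf2-/- 1, 2 and 3, against 4.12, 4.18 and 4.11 in WT 4, 5 and 6. The groups did not overlap, and every one of these signals lay below the median of all probe sets. The means were 4.58 ± 0.14 in Ikzf2-/- and 4.14 ± 0.04 in WT 4 to 6 (SD, n = 3 each). The difference was 0.44 (SE 0.07, interval 0.29 to 0.59, 1.36-fold, unadjusted p = 3.32e-05, the 11th smallest of all genes), with an adjusted p of 0.0592 that missed the threshold. This SE comes from the spread shared by all groups, also those outside this comparison. The SD of Il2 was 0.01 in dKO, 0.03 in Ikzf4-/- and 0.10 in WT 1 to 3. Over all genes the median SD was 0.146 in Ikzf2-/- and 0.073 to 0.093 in the other groups. Il2 crossed the threshold without Ikzf2-/- 1 (0.52, adjusted p = 0.00478), without Ikzf2-/- 2 (0.39, adjusted p = 0.0459) and when all 15 arrays were quantile-normalized again (0.50, adjusted p = 0.0299). Those fits called 424, 97 and 38 of all genes in the same order, against 2 in the fit reported, so the gain in calls was not particular to Il2. It was far from it when only the 6 arrays of that run entered the fit (0.44, adjusted p = 0.594).

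Beside this, the neutrophil list (8 of 8 measured) averaged 5.95 to 8.30 on the Ikzf2-/- arrays, while WT 4 to 6 had 5.05 to 5.59. The B cell list (12 of 13 measured) averaged 5.16 to 7.87 on the Ikzf2-/- arrays, while WT 4 to 6 had 5.20 to 5.45, and thus overlapped. The eosinophil list (4 of 5 measured) averaged 5.27 to 5.80 on the Ikzf2-/- arrays and 4.74 to 4.92 in WT 4 to 6, and the basophil and mast cell list 4.21 to 4.47 on the Ikzf2-/- arrays and 4.07 to 4.14 in WT 4 to 6, so both separated, as did the neutrophil list. The part of those cells in the Il2 difference was not tested. Without Ikzf2-/- 3, which has the highest means of the neutrophil and B cell lists, the Il2 difference was 0.42 (adjusted p = 0.134).

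In the run with dKO, no Il2 difference passed an unadjusted p of 0.05. It read 4.93, 4.91 and 4.90 in dKO 1, 2 and 3 and 4.90, 4.84 and 4.88 in Ikzf4-/- 1, 2 and 3, against 4.90, 5.07 and 4.90 in WT 1, 2 and 3. The deposited values of dKO 3, Ikzf4-/- 1, WT 1 and WT 3 were identical (4.90061), so these 4 of 9 arrays have no order. The difference was -0.05 in dKO against WT, -0.09 in Ikzf4-/- against WT and 0.04 between dKO and Ikzf4-/- (SE 0.07 each). The interval for dKO against WT, -0.20 to 0.11, does not reach the 0.44 seen in Ikzf2-/-. The effect of Helios loss with Eos missing minus that with Eos present was -0.40 (SE 0.10, unadjusted p = 0.00161, the only member under 0.05 beside 5.32% of all genes), which did not pass over all genes (adjusted p = 0.87). The WT arrays of both runs were themselves 0.82 apart. Each difference in this contrast was taken within its own run, so a shift common to a run drops out of it. The contrast still sets differences from separately processed arrays beside each other.

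Il4, the T helper 2 cytokine gene, was near background on all arrays except Ikzf2-/- 2. It read 4.31, 5.58 and 4.41 in Ikzf2-/- 1, 2 and 3, against 4.04, 4.32 and 4.05 in WT 4, 5 and 6. The difference of 0.63 (SE 0.26, unadjusted p = 0.0321, adjusted p = 0.33) was 0.22 without Ikzf2-/- 2, and Ikzf2-/- 1 lay below WT 5. Basophils also make interleukin-4, and their protease gene Mcpt8 read 4.86, 4.87 and 5.83 in Ikzf2-/- 1, 2 and 3, while WT 4 to 6 read 4.35 to 4.52, and 4 of the 6 genes of the basophil and mast cell list lay near background. Eosinophils are another source, and their granule protein gene Prg2 read 7.72, 5.70 and 7.02 in Ikzf2-/- 1, 2 and 3, while WT 4 to 6 read 5.00 to 5.18. The part of either cell type in the Il4 signal was not tested.

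In dKO 1, 2 and 3 Il4 read 4.02, 4.56 and 4.00 and in Ikzf4-/- 1, 2 and 3 it read 3.84, 3.86 and 3.72, against 3.78, 3.97 and 4.16 in WT 1, 2 and 3. The dKO arrays lay above the Ikzf4-/- arrays and overlapped WT. The difference was 0.39 against Ikzf4-/- and 0.23 against WT (SE 0.26 each, adjusted p = 1), and leaving out dKO 2 gave 0.20 and 0.04. This SE comes from the spread shared by all groups, with an SD of 0.70 in Ikzf2-/-. The SD was 0.31 in dKO, 0.07 in Ikzf4-/- and 0.19 in WT 1 to 3. In limma with only the arrays of this run, the unadjusted p was under 0.05 against Ikzf4-/- (beside 4.56% of all genes). Against WT it was not. Il13, which lies in the same cytokine cluster, differed by at most 0.11 in either direction over the 4 comparisons (SE 0.12), and Il5, of the same cluster, by at most 0.08 (SE 0.08).

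Gata3, the T helper 2 regulator that Treg cells also use, was well above background. It read 9.42, 9.62 and 9.38 in dKO 1, 2 and 3 and 9.17, 9.48 and 9.19 in Ikzf4-/- 1, 2 and 3, against 9.38, 9.38 and 9.07 in WT 1, 2 and 3. The 3 groups overlapped. The difference was 0.20 in dKO against both WT and Ikzf4-/- (SE 0.18) and 0.00 in Ikzf4-/- against WT (interval -0.39 to 0.39). When replicate number entered as a block, in the 9 arrays of the run, the unadjusted p for dKO was 0.0357 against WT and 0.0351 against Ikzf4-/- (adjusted p = 0.71 and 0.83).

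In Ikzf2-/- 1, 2 and 3 Gata3 read 8.90, 8.14 and 8.87, against 8.38, 8.38 and 8.04 in WT 4, 5 and 6. Ikzf2-/- 1 and 3 lay above all 3 WT arrays and Ikzf2-/- 2 between them. The difference was 0.37 (SE 0.18, interval -0.02 to 0.76, adjusted p = 0.42), and it lay between 0.24 without Ikzf2-/- 1 and 0.62 without Ikzf2-/- 2 (adjusted p = 0.58 and 0.0583).

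Il17a, near background in every group, read 4.81, 4.69 and 4.63 in dKO 1, 2 and 3 and 4.84, 4.68 and 4.81 in Ikzf4-/- 1, 2 and 3, against 4.81, 4.81 and 4.97 in WT 1, 2 and 3. It read 4.53, 4.78 and 4.71 in Ikzf2-/- 1, 2 and 3, against 4.75, 4.64 and 4.63 in WT 4, 5 and 6. All groups overlapped, and 4 of the 9 arrays of the first run shared 1 identical value. The difference was -0.15 in dKO against WT (interval -0.32 to 0.02) and -0.09 in Ikzf4-/- against WT (interval -0.26 to 0.08). It was 0.00 in Ikzf2-/- against WT (interval -0.17 to 0.17), an interval that only that of Il2 was narrower than. Il17f, its neighbour and close relative, was near background too and differed by at most 0.11 in either direction (SE 0.08).

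Bcl6 was bright and nearly level in the run with dKO. It read 7.75, 7.85 and 7.70 in dKO 1, 2 and 3 and 7.80, 7.86 and 7.80 in Ikzf4-/- 1, 2 and 3, against 7.80, 7.90 and 7.80 in WT 1, 2 and 3. All 9 arrays lay between 7.70 and 7.90, and the groups overlapped. The difference was -0.07 in dKO against WT, -0.01 in Ikzf4-/- against WT and -0.06 in dKO against Ikzf4-/-. The SE of 0.28 comes from the spread shared by all groups: the SD was 0.83 in Ikzf2-/-, against 0.20 in WT 4 to 6, and 0.07 in dKO, 0.03 in Ikzf4-/- and 0.05 in WT 1 to 3.

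In Ikzf2-/- 1, 2 and 3 Bcl6 read 6.95, 5.86 and 7.49, against 6.80, 7.21 and 7.02 in WT 4, 5 and 6. One Ikzf2-/- array lay below all WT arrays of its run, another above them and the last among them. The difference was -0.24 (SE 0.28) and changed sign to 0.21 without Ikzf2-/- 2. Without Ikzf2-/- 3 it was -0.60. Germinal centre B cells express Bcl6 as well. The germinal centre and plasma cell list averaged 6.96, 6.34 and 6.69 in Ikzf2-/- 1, 2 and 3, while WT 4 to 6 had 6.17 to 6.45. Of its genes Mki67 read 8.28, 8.03 and 8.82 on these arrays, against 7.13 to 7.60 in WT 4 to 6. Gcsam (5.13, 4.84 and 4.58, against 4.69 to 4.80) and Jchain (10.05, 8.39 and 8.26, against 8.50 to 8.97) overlapped. The part of such cells in the Bcl6 values was not tested.

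Il21, the follicular helper cytokine gene, lay near background, and 4 of the 22 organ genes had lower means. It read 3.79, 4.16 and 3.43 in dKO 1, 2 and 3 and 3.58, 3.64 and 3.58 in Ikzf4-/- 1, 2 and 3, against 3.46, 3.71 and 3.37 in WT 1, 2 and 3. In dKO, array 2 was high and array 3 low, and all groups overlapped. The difference from WT was 0.28 in dKO (SE 0.16, interval -0.06 to 0.62), with 0.10 without dKO 2 and 0.46 without dKO 3. In Ikzf2-/- 1, 2 and 3 it read 3.12, 3.47 and 3.57, against 3.18, 3.27 and 3.26 in WT 4, 5 and 6 (difference 0.15, SE 0.16, with 0.06 without Ikzf2-/- 3 and 0.29 without Ikzf2-/- 1).

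**Figure D3:**
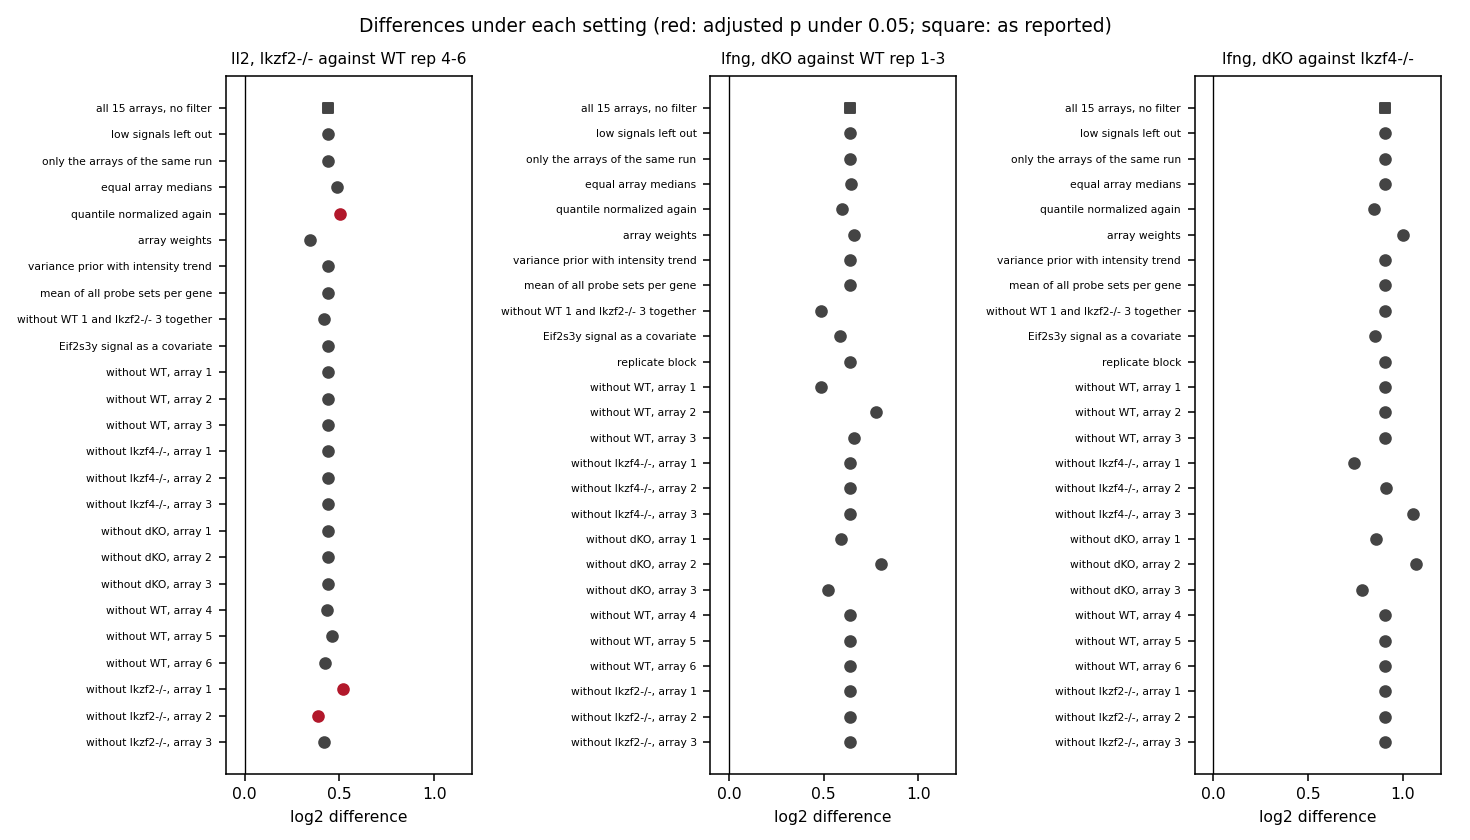
Log2 difference (x axis) of Il2 in Ikzf2-/- against WT, Ifng in dKO against WT and again against Ikzf4-/- under each processing setting and with each array left out (rows). The square is the value in the text, and red marks an adjusted p under 0.05. All values lie right of 0, with Il2 between 0.35 and 0.52 and red in 3 settings, and Ifng never red.

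Over the 9 members the median difference was 0.30 in Ikzf2-/- against WT (8 positive), -0.06 in Ikzf4-/- against WT (2 positive), 0.20 in dKO against WT (5 positive) and 0.20 (6 positive) in dKO against Ikzf4-/-. The median of all genes was 0.01, -0.002, -0.003 and -0.0001 in the same order. These counts describe values that did not pass the test.

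Wider lists for the same lineages were then read, and 0 of their genes passed over all genes in any comparison. Of the T helper 1 list 18 of 20 genes were measured, with a median of 0.07 in Ikzf2-/- against WT, -0.05 in Ikzf4-/- against WT, 0.09 for dKO against WT and 0.002 for dKO against Ikzf4-/-. Without Ifng and Tbx21 themselves these medians were 0.03, 0.01, 0.03 and -0.01. Among its other genes the smallest p belonged to Cxcr3, a T-bet target that draws T cells to inflamed tissue, and to Il18r1, which encodes an interleukin-18 receptor chain. Cxcr3 stood at 0.72 in Ikzf2-/- against WT, 0.59 for dKO against WT and 0.77 for dKO against Ikzf4-/- (SE 0.19), without overlap in these 3 comparisons. Il18r1 stood at -0.51, -0.77 and -0.43 in the same comparisons and at -0.33 in Ikzf4-/- against WT (SE 0.12), likewise without overlap, so genes of this list lay on both sides. Il12rb1, a chain of the interleukin-12 receptor, was at 0.32 in dKO against Ikzf4-/- (SE 0.09).

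Of the T helper 2 list 17 of 20 genes were measured, with medians of 0.11 in Ikzf2-/- against WT, -0.01 in Ikzf4-/- against WT, 0.07 for dKO against WT (0.03 without Il4 and Gata3) and 0.04 for dKO against Ikzf4-/-. Maf, which activates Il4 in helper cells and Il10 in several T cell types, stood at 0.51 in dKO against WT (SE 0.12, adjusted p = 0.465), and Il4ra, the interleukin-4 receptor chain, at -0.27 (SE 0.09). Of the T helper 17 list 16 of 20 were measured, with medians between 0.003 and 0.05. In dKO against WT 11 of its 16 genes were positive, and 3 were higher and 1 lower without overlap (beside 3.93% and 3.64% of all genes). Values below 0 there included -0.49 for the receptor gene Il23r (SE 0.20) and -0.21 for the regulator Rora (SE 0.09). In Ikzf2-/- against WT the activation factor gene Batf stood at 0.41 and the chemokine gene Ccl20 at -0.25.

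Of the follicular helper list 20 of 21 were measured, with medians between 0.03 and 0.09. In dKO against WT the CD30 ligand gene Tnfsf8 stood at 0.98 (SE 0.15, adjusted p = 0.0679), Slamf6 at 0.45 (SE 0.08) and Id2 at 0.76 (SE 0.30), while Bcl6 and Il21, of the same list, are given above. Of the cytotoxic list around Eomes 16 of 16 were measured, with medians between -0.04 and 0.12, and Ctsw (cathepsin W) stood at -0.78 in dKO against WT (SE 0.15, adjusted p = 0.239). Zeb2, a T-bet partner in cytotoxic cells, stood at 0.38 in Ikzf2-/- against WT (SE 0.10). Of genes tied to Il2 control 22 of 24 were measured, with medians between -0.001 and 0.05. This list and its medians include Ikzf2 and Ikzf4 themselves, and Ikzf2 stood at -0.86 in Ikzf2-/- against WT (SE 0.20). In Ikzf2-/- against WT Satb1, a chromatin organizer, was at -0.34 (SE 0.11) and Ikzf3 (Aiolos) at 0.35 (SE 0.13), and in dKO against WT Ikzf1 (Ikaros) was at 0.27 (SE 0.09). Jun, an AP-1 subunit, was at -0.72 in Ikzf4-/- against WT (SE 0.27).

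**Figure D4:**
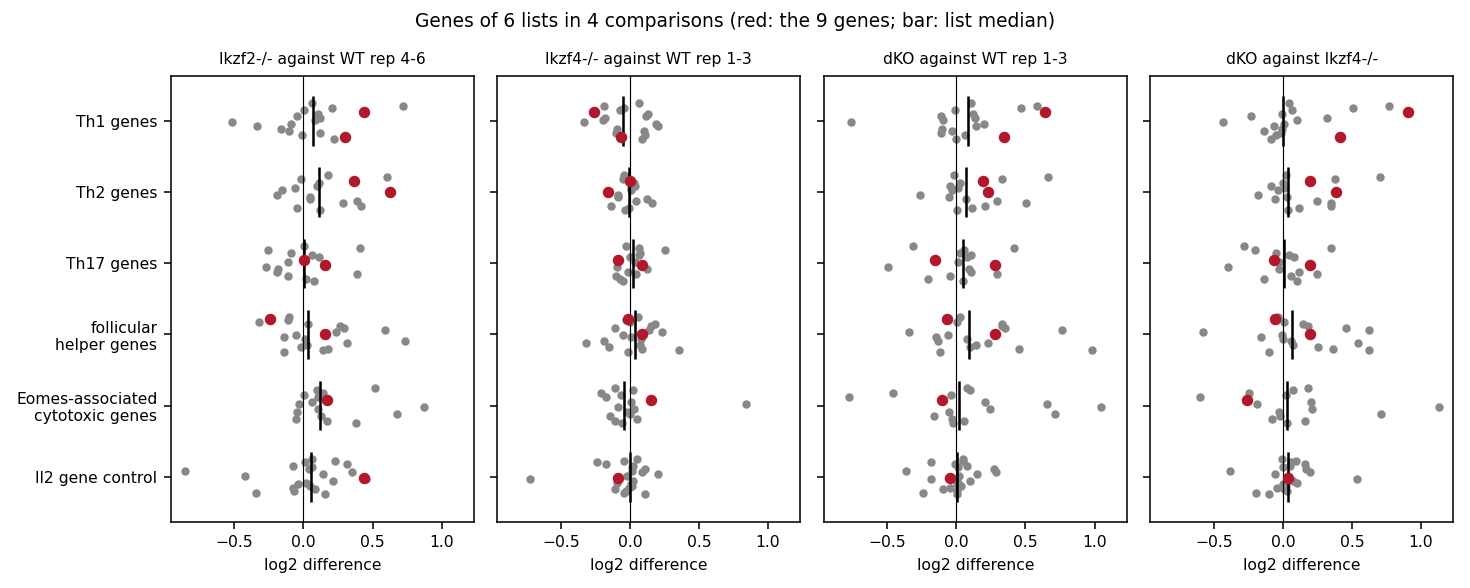
Log2 difference (x axis) of each measured gene of 6 lists (rows) in the 4 comparisons (panels). Red points are members of the 9, grey points other genes, and black bars list medians, which lie between -0.05 and 0.12. In dKO against Ikzf4-/- Ifng (0.90) is the T helper 1 gene farthest to the right.

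Patterns over the 15 arrays were compared after each gene was centred within its run, for the 6 members not near background, among 10963 other genes. Il2 counts among these 6 only through WT 1 to 3. The 3 genes most like Gata3 were Incenp, a mitotic gene (Pearson r = 0.94), and the activation factors Irf4 (0.93) and Batf (0.92), and without Ikzf2-/- 2 the values were 0.94, 0.92 and 0.92. Those most like Tbx21 were Gypc (0.86), Cxcr3 (0.84) and Tnfsf9, the 4-1BB ligand gene (0.84). For Ifng they were Atp6v0a1 (0.88), Map3k5 (0.86) and Nup88 (0.84), and for Il2 Pdap1 (0.95), Blvra (0.94) and Rpsa (0.93). Bcl6 came closest to Mdh2 (0.98), Lbh (0.97) and Ubap2l (0.97), which without Ikzf2-/- 2 were at 0.89, 0.83 and 0.84, and Eomes to Taf2, Rbm27 and Sdhaf1 (0.78, 0.77 and 0.76). These are the highest of many values over arrays that share groups and runs, and are given as description. Among the members themselves Ifng and Tbx21 stood at 0.63 and Tbx21 and Il4 at 0.68, while Eomes and Tbx21 stood at 0.08.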

How the data were processed

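For each array 15 ng of RNA was amplified and biotin-labelled, per the labels. The deposited values are log2 signals of 35556 probe sets that the authors made with Affymetrix Expression Console 1.3.1 and RMA, per the submitters' processing notes. The method corrects background, equalises array distributions and joins probes into sets, which compresses differences of dim genes. Pairs of arrays shared exactly equal values in 2286 probe sets on average within the run of WT 1 to 3, in 34.4 within the other and in 0.0741 across runs, so runs were kept apart. The labels do not state the division of WT arrays into runs: it follows array numbering.

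Probe sets with 1 symbol (21789) were named through the platform annotation, updated by Entrez identifier to GRCm38.p6, and the brightest was kept per gene. All arrays entered 1 fit in limma 3.58.1 (R 4.3.3, lmFit and eBayes, 5 group means, 10 residual degrees of freedom, no signal filter), tested on simulated data, with Benjamini-Hochberg adjustment at 0.05. The members and gene lists were chosen with earlier results of these data known. Members are named in every comparison, and of each list up to 3 genes per comparison by smallest p where none passed. Il5, Il13 and Il17f, and values of a named gene in further comparisons, were added after values were seen. Whether arrays are separate animals is not stated in the labels, and p-values then measure only array-to-array spread, which may be technical, and the number of arrays limits the precision.

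Replicate numbers are shared in the run of WT 1 to 3. Deviations of same-numbered arrays correlated at 0.138, 0.217 and 0.303 between Ikzf4-/- and WT and at 0.428, 0.196 and 0.267 between dKO and Ikzf4-/-, which met the criterion of every pair over 0.1, and at 0.071, 0.045 and 0.173 between dKO and WT, which did not.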

Additional observations from a re-analysis of the deposited data

How the results depend on the processing

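Of 122 counts of members called, recomputed under 10 alternatives and with each of 15 arrays left out, 119 were 0, as reported. The exceptions, 1 each, were all Il2 in Ikzf2-/- against WT: after quantile normalization of all arrays, and without Ikzf2-/- 1 or 2 (range 0 to 1 over arrays left out). Of all genes those fits called 38, 424 and 97, against 2 in the fit reported. The replicate block, fitted to 9 arrays, changed no call after adjustment but raised the members at an unadjusted p under 0.05 to 4 in both dKO comparisons, against 2 without it. Other settings lowered that count for dKO against WT. It was 1, Ifng, with only the arrays of the run, after repeated quantile normalization, with the Eif2s3y covariate and without WT 1. Without WT 1 and Ikzf2-/- 3 together it was 0, while dKO against Ikzf4-/- kept 2 (beside 3.24% of all genes). For Ikzf2-/- against WT, with 2 in the fit reported, that count was 3 with only the arrays of the run. It was 4 at equal array medians and after repeated quantile normalization (beside 15.9% and 14.9% of all genes), and 1, Il2, without WT 6 (beside 9.09%). With the block Ifng stayed at 0.64 for dKO against WT (adjusted p = 0.568) and 0.90 for dKO against Ikzf4-/- (adjusted p = 0.608). No paired analysis was possible for Ikzf2-/-, whose arrays share no numbers with WT 4 to 6. Of 339 member differences under alternatives, 6 took the other sign, all of values near 0. In Ikzf2-/- against WT, Il17a was -0.086 with array weights and -0.017 without WT 1 and Ikzf2-/- 3. In Ikzf4-/- against WT, Tbx21 was 0.0021 with array weights, and Gata3 0.000113 at equal array medians, 0.051 without WT 1 and Ikzf2-/- 3 and 0.0016 with the Eif2s3y covariate. With arrays left out, sign changes were within these ranges: Il17a -0.048 to 0.073 and Bcl6 -0.605 to 0.212 in Ikzf2-/- against WT; Gata3 -0.105 to 0.055, Tbx21 -0.222 to 0.072, Bcl6 -0.031 to 0.019 and Eomes -0.116 to 0.334 in Ikzf4-/- against WT; Il2 -0.075 to 0.012 in dKO against WT; Eomes -0.438 to 0.012 in dKO against Ikzf4-/-. The causes were not tested. Ifng in dKO against Ikzf4-/- came closest to the threshold with array weights (1.00, adjusted p = 0.0774). Signals near background limit what Il4, Il17a and Il21 can show. The same holds for Il2, whose means lay below the median of all probe sets in every group but WT 1 to 3.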

Other observations

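The WT arrays of both runs are not set against each other in any comparison above. WT 4 to 6 minus WT 1 to 3 was -1.01 for Gata3 (means 8.27 and 9.28), -0.83 for Bcl6 (7.01 and 7.84), -0.82 for Il2 (4.14 and 4.96) and -0.74 for Eomes (5.87 and 6.61). It was -0.28 for Il21, -0.19 for Ifng and Il17a, -0.02 for Tbx21 and 0.17 for Il4. For Gata3, Bcl6, Il2 and Eomes these offsets exceed each knockout difference of the same gene given above, and arrays and run cannot be told apart in them.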
